A study of Mus musculus with 8 samples.

Results

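Immediate early genes are the genes a cell switches on first when it receives a signal, from factors already present in the cell and without new protein synthesis. Growth factor receptors act on many of them through the ERK/MAPK cascade, which phosphorylates the ternary complex factors that sit with serum response factor on their promoters, while cAMP and stress kinases act through CREB. Most encode short-lived transcription factors: FOS and JUN proteins pair to form the AP-1 factor, and EGR1 and NR4A1 bind sites of their own. In ECs they are known to respond to growth factors, shear stress and inflammatory signals, and also to the dissociation of tissue.

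The 10 genes described here were Fos, Fosb, Fosl2, Jun, Junb, Jund, Egr1, Ier2, Ier3 and Nr4a1, each taken by its symbol from the 54532 genes of the count table. They were measured by bulk RNA-seq in lung ECs of wild-type C57BL/6J mouse pups on postnatal day 14. The normoxia group (4 libraries) had been reared in room air with 21% oxygen and the hyperoxia group (4 libraries) in 80% oxygen, in both cases from day 0. The study asked, among other questions, whether signalling below the receptor FGFR1, including the ERK/MAPK pathway, was altered in ECs of hyperoxic lungs. Per the study's methods, lungs were digested enzymatically at body temperature, depleted of CD45-positive leukocytes and enriched for CD31-positive ECs on beads. No undissociated sample was analysed here, so transcripts made in the lung and those made during isolation cannot be told apart. The labels do not say whether the 4 libraries of a group came from separate animals or from pools, so p-values measure the spread between these libraries.

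Library totals ran from 16098086 to 18300730 counts. All 10 genes passed the filter on low counts, as did 15564 genes in all, and the lowest count of any of the 10 in a library was 2098, for Jund. The summed level of 9 endothelial markers was 15235 to 16148 CPM (counts scaled to a common library total with TMM factors) in normoxia and 14785 to 15594 CPM in hyperoxia, led by Cdh5 (4121 ± 175 and 4035 ± 140 CPM, SD, n = 4), which encodes an endothelial cadherin, and by Pecam1 and Cldn5. Of the 9 markers 3 were higher in hyperoxia (Cldn5, Kdr and Emcn), 3 were lower (Tek, Tie1 and Erg) and 3 did not pass the test. Tek, for the angiopoietin receptor, differed most, with means of 1182 and 682 CPM. RNA of other lung cells differed between the groups. The sums of the lists for alveolar type 2 cells (366 to 466 against 882 to 2451 CPM), alveolar type 1 cells (78.2 to 97.5 against 165 to 468 CPM), epithelium in general (5.58 to 10.96 against 20.5 to 68.5 CPM) and mural cells (44.5 to 79.4 against 98.5 to 172 CPM) did not overlap. The type 2 cell gene Sftpc, for surfactant protein C, had means of 106 and 1121 CPM. The sums for fibroblasts, leukocytes, airway cells and platelets with erythroid cells overlapped, although 6 of 8 tested fibroblast markers were higher and none was lower (median log2 fold change 1.08). Of the hyperoxia libraries, replicate 3 held the least epithelial RNA. In such bulk samples, fewer cells of a type and less RNA per cell cannot be told apart.

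Relative to normoxia, Jund and Nr4a1 were higher in hyperoxia by 53.1% and 30.1%, Fos by 14.7%, and Ier3 was lower by 38.4%. The other 6 genes, among them Jun, Junb, Egr1 and Ier2, which are among the best known of the class, did not pass the test. Hence 4 of 10 passed at an adjusted p under 0.05 in edgeR's quasi-likelihood test over all genes, against 35.6% of all tested genes. Of these, 3 were higher and 1 was lower, where 18.5% of all genes were higher and 17.1% were lower. No member reached an absolute log2 fold change of 1 as well, which 6.98% of all genes did. The CPM of the groups did not overlap for 3 members (Fos, Jund and Ier3), against 35.4% of all genes. These shares are near the background, so the counts say nothing particular of the 10 genes. The median log2 fold change was 0.13 over the 10 genes and -0.00 over all tested genes.

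**Figure D1:**
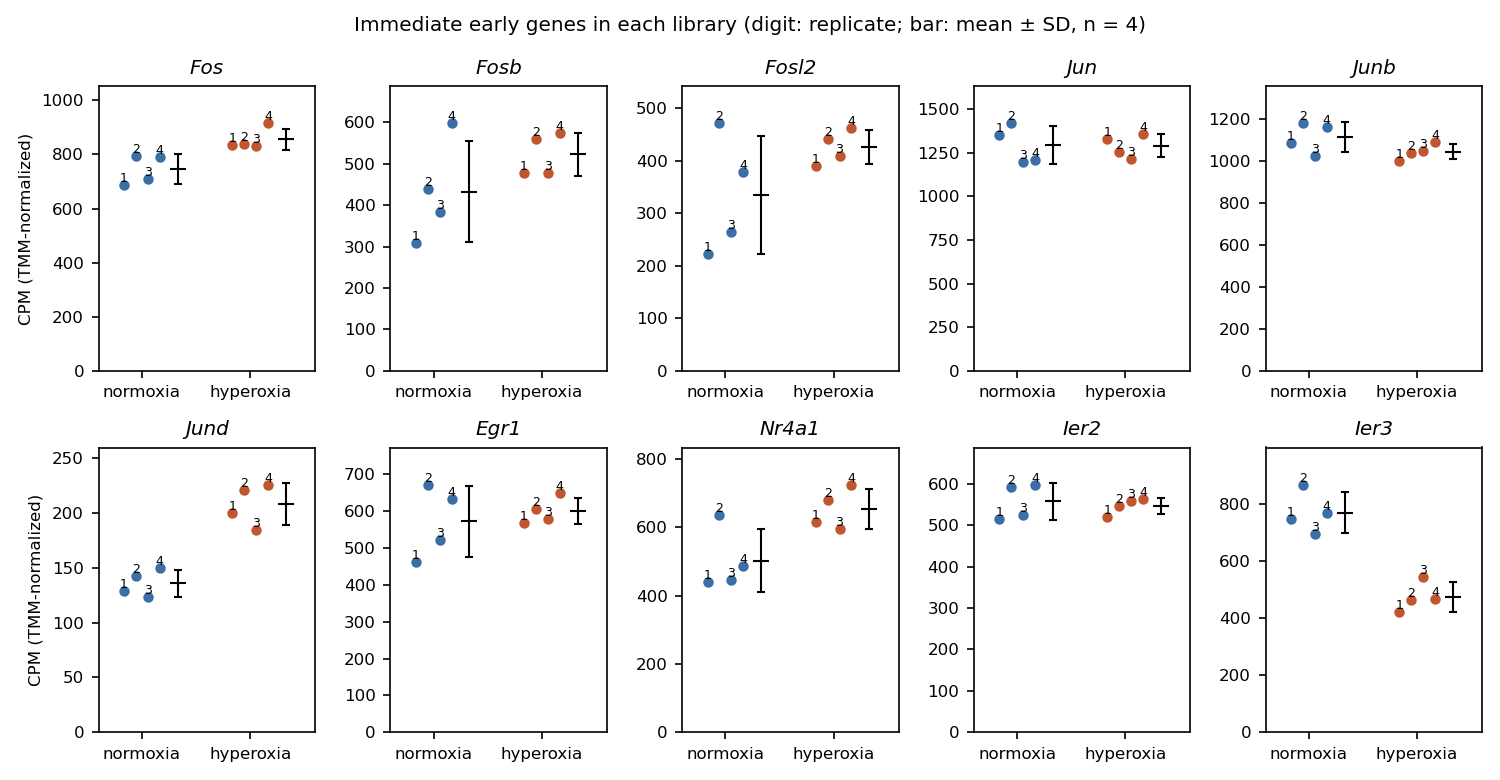
Level of each of the 10 immediate early genes in every library, in CPM on an axis from 0, with the replicate number beside each point and bars for the mean ± SD (n = 4 per group). The groups are apart for Fos, Jund (both higher in hyperoxia) and Ier3 (lower), and the normoxia libraries of Fosb and Fosl2 are spread widely.

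All 10 genes were abundant. Per length, in FPKM (fragments per kilobase of exon, scaled to the library total and averaged over the 8 libraries), Ier3 stood first with 546, followed by Junb with 465, Jun with 402, Ier2 with 360 and Fos with 338. A second tier held Nr4a1 with 163, Egr1 with 130, Jund with 102, Fosb with 76.0 and Fosl2 with 39.0. Even Fosl2 lay above 92.3% of the tested genes. Over the 8 libraries the range of FPKM of each gene overlapped that of the next in this order, except between Fos (lowest 291) and Nr4a1 (highest 205) and between Fosb (lowest 49.2) and Fosl2 (highest 48.1). The order of the means differed by group. At the top, Ier3 had 675 ± 60.7 FPKM in normoxia, above Junb with 479 ± 29.7. In hyperoxia Ier3 had 417 ± 46.8 FPKM, below Junb with 451 ± 16.2. Farther down, Ier2 (363 FPKM) was above Fos (314 FPKM) in normoxia, and Fos (362 FPKM) was slightly above Ier2 (357 FPKM) in hyperoxia.

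**Figure D2:**
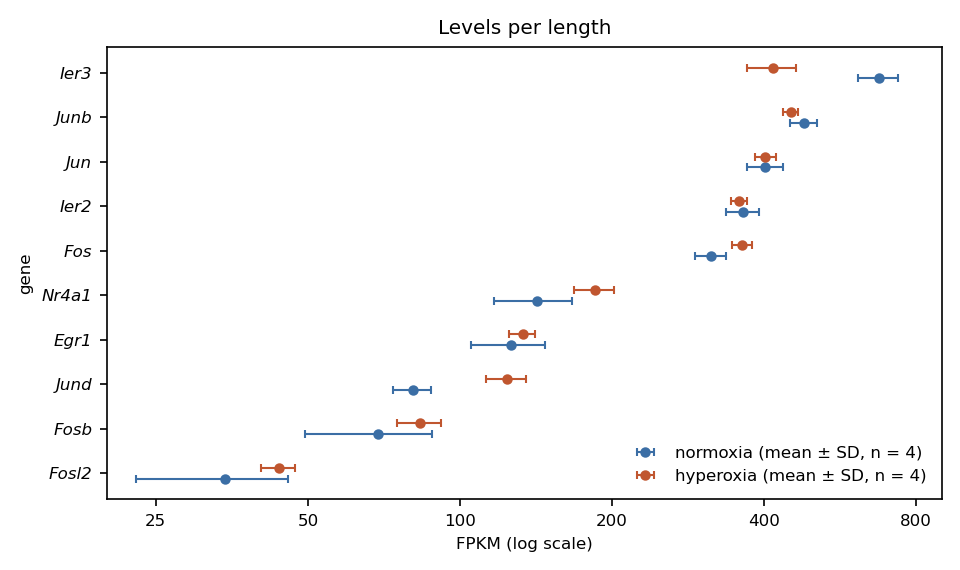
Level per length of the 10 genes in FPKM on a log axis, as mean ± SD over the 4 libraries of each group. Ier3 leads in normoxia and falls to the level of Junb and Jun in hyperoxia, while Jund lies higher in hyperoxia. The group means of Jun lie close together, as do those of Ier2.

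Promoters of this class are known for sites of a few signal-driven factors. RefSeq's promoter table for GRCm38.p6 held 8 of the 10 genes (all but Egr1 and Ier2), and the 250 bases before the start were searched on both strands for a CArG box (the site of serum response factor), the full CRE (TGACGTCA, the CREB site), its core (TGACG, which the full CRE contains), the AP-1 site (TGANTCA) and the EGR site (GCGNGGGCG). Over all 32851 promoters of the table, these were found in 1.47%, 1.55%, 17.8%, 6.75% and 4.70%, respectively. Shown are Fos and Nr4a1, which rose, Ier3, which fell, and Fosb, which holds both a CRE core and an EGR site. They lie at chr12:85473640-85473889 (Fos, plus strand), chr7:19310046-19310295 (Fosb, minus strand), chr15:101266596-101266845 (Nr4a1, plus strand, at a start inside the gene) and chr17:35821463-35821712 (Ier3, plus strand). Each is given 5′ to 3′ on the strand of the gene, and capitals mark the CRE cores and EGR sites, on either strand.
Fos: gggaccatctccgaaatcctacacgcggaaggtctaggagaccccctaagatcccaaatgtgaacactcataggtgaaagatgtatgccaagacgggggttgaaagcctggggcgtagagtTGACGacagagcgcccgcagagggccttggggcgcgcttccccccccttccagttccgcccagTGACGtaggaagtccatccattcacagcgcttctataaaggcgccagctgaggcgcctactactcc
Fosb: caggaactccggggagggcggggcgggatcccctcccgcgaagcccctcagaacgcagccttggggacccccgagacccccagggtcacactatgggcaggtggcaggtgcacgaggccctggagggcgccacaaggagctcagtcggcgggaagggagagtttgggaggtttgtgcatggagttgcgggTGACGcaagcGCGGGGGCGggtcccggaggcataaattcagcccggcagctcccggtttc
Nr4a1: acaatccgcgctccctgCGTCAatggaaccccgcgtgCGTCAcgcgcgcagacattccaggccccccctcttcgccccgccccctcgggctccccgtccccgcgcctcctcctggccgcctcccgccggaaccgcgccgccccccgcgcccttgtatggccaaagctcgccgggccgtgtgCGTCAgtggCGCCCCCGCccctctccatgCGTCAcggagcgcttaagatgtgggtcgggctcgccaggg
Ier3: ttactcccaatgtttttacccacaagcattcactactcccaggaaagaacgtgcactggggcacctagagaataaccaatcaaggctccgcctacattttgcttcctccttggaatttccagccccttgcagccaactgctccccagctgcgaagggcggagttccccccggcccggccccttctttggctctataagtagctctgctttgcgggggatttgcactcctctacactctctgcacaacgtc

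Fos held CRE cores at 129 to 125 and 66 to 62 bases before its start. Fosb held 1 at 60 to 56 bases and an EGR site at 50 to 42 bases before its start. Nr4a1 held 4 CRE cores, all on the opposite strand, of which the nearest lay 40 to 36 bases before the start, and an EGR site at 60 to 52 bases. Beyond those printed, Fosl2 held an EGR site and Junb a CRE core. None of these letters was found in the windows of Jun, Jund and Ier3, and no CArG box, full CRE or AP-1 site was found in any of the 8. The start to which the Jund window belongs lies 1210 bases upstream of the gene start in the files, and the window is not shown. These matches describe the letters only. Sites farther upstream, or with letters that differ from those given, were not searched for, so they may be present.

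The FOS family encodes the AP-1 partners that cannot pair among themselves. Fos (ENSMUSG00000021250, GRCm38 chr12:85473890-85477273), its founding member and a textbook ERK response gene, was at 687, 795, 709 and 790.5 CPM in normoxia replicates 1 to 4 and at 835, 838, 833 and 916 CPM in hyperoxia replicates 1 to 4. Every hyperoxia library was above every normoxia library, by a narrow margin, and the highest value was that of hyperoxia replicate 4. The log2 fold change was 0.20 (SE 0.06, adjusted p 0.0252, edgeR). The adjusted p was 0.0715 without normoxia replicate 1, 0.0631 without normoxia replicate 3 and 0.0744 without hyperoxia replicate 4.

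Fosb (chr7:19302696-19310051), whose truncated protein form gathers on repeated stimulation, was at 309, 439, 385 and 598 CPM in normoxia and at 478, 560.45, 478 and 574 CPM in hyperoxia. Normoxia replicate 4 was the highest of all libraries and normoxia replicate 1 the lowest, so the groups overlapped. Its log2 fold change was 0.27 (95% interval -0.09 to 0.64, adjusted p 0.226). Fosl2 (chr5:32135801-32157842), which encodes the later acting FRA-2 protein, was at 223, 472, 264 and 379.5 CPM in normoxia and at 391, 442, 409 and 463 CPM in hyperoxia. The normoxia libraries covered a 2.11-fold range around a hyperoxia group with a 1.18-fold range. The log2 fold change of Fosl2 was 0.35 (95% interval -0.08 to 0.77, adjusted p 0.186). In both genes 1 library decided the call: without normoxia replicate 4 the adjusted p of Fosb was 0.0145 at a log2 fold change of 0.47, and without normoxia replicate 2 that of Fosl2 was 0.0218 at 0.56. Within the summed FPKM of the 3 FOS members, Fos held 75.7% ± 3.82 in normoxia and 74.0% ± 1.27 in hyperoxia (SD, n = 4), and the ranges of all 3 shares overlapped between groups.

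The JUN family supplies the partner that every FOS protein needs, and its members can also pair with each other. Jun (chr4:95049034-95052222), the first member described and a target of JNK, was at 1349.9, 1419.6, 1199 and 1207 CPM in normoxia and at 1329, 1257, 1216 and 1359 CPM in hyperoxia. All hyperoxia libraries fell inside the normoxia range. The log2 fold change was -0.00 (95% interval -0.15 to 0.14, adjusted p 0.969). Junb (chr8:84974484-84978718), which often tempers the action of JUN on the cell cycle, was at 1086, 1179.7, 1023 and 1160.3 CPM in normoxia and at 1001, 1036, 1049 and 1090.4 CPM in hyperoxia. Both groups overlapped, with a log2 fold change of -0.09 (95% interval -0.21 to 0.03, adjusted p 0.222).

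Jund (chr8:70698949-70700616) is the member that most cells express steadily rather than on a signal, and its protein is known to limit proliferation and oxidative stress. It was at 128, 142, 123 and 149 CPM in normoxia and at 200.1, 221, 184 and 225.5 CPM in hyperoxia. The lowest hyperoxia library, replicate 3, was above the highest normoxia library. Jund was 1.53-fold higher in hyperoxia (log2 fold change 0.61, SE 0.08, adjusted p 0.000172, edgeR), the largest rise of the 10 genes, and it passed the test without any 1 of the 8 libraries. Its share of the summed FPKM of the 3 JUN members was 8.38% ± 0.566 in normoxia and 12.7% ± 0.830 in hyperoxia, with ranges of 7.92% to 9.20% and 11.7% to 13.6% that did not overlap. The shares of Junb also lay apart, at 48.6% to 51.9% and 44.8% to 48.1%, and those of Jun overlapped. Junb shares 7.52% of its exon bases with Prdx2 on the other strand, and Jun shares 7.28% with the antisense RNA Junos. The antisense gene Gm11175 covers 52.6% of the exon bases of Jund and had 0 counts in every library. Since the use of strand in counting is not given in the sources used here, reads of these pairs cannot be told apart. The levels and shares of Jund, Junb and Jun beside other genes could be affected by this, which was not tested.

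EGR1 is a zinc finger factor that ERK signalling and shear stress induce in ECs. Egr1 (chr18:34859823-34864984) was at 461, 671, 521 and 631 CPM in normoxia and at 568, 605, 578 and 648 CPM in hyperoxia. All hyperoxia libraries fell inside the range of the normoxia libraries. The log2 fold change was 0.07 (95% interval -0.16 to 0.30, adjusted p 0.640).

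Nr4a1 (chr15:101254269-101274795) encodes an orphan nuclear receptor that VEGF and other endothelial signals induce. Its levels were 440.0, 635, 446 and 486 CPM in normoxia and 615, 679, 595 and 724 CPM in hyperoxia. Normoxia replicate 2 was above hyperoxia replicates 1 and 3, and the other normoxia libraries were below all of hyperoxia. Nr4a1 was 1.30-fold higher in hyperoxia (log2 fold change 0.38, SE 0.11, adjusted p 0.0228, edgeR), and this call was lost when any 1 of 5 libraries was left out, with adjusted p-values from 0.0589 to 0.0629. These libraries were normoxia replicates 1, 3 and 4 and hyperoxia replicates 2 and 4.

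The IER genes are named for their rapid induction. Ier2 (chr8:84661331-84662852), a nuclear protein with a single exon gene, was at 514, 592, 526 and 598 CPM in normoxia and at 519, 546, 558 and 564 CPM in hyperoxia. The hyperoxia libraries lay inside the normoxia range, and the log2 fold change was -0.03 (95% interval -0.16 to 0.10, adjusted p 0.744). Ier3 (chr17:35821684-35822923) encodes a short-lived protein that NF-κB and ERK induce and that acts on cell survival. Its levels were 748, 868, 695 and 767 CPM in normoxia and 421, 463, 545 and 466 CPM in hyperoxia. Every hyperoxia library was below every normoxia library, and hyperoxia replicate 3 was nearest to normoxia. Ier3 fell by 0.70 on the log2 scale (SE 0.09, adjusted p 0.000131, edgeR), to 0.616 of its normoxia level, and passed the test without any 1 of the 8 libraries. It was the most abundant of the 10 per length and the only one of them that fell in this test.

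The libraries of 1 group differed among themselves in most of the 10 genes at once. Normoxia replicate 2 was above the normoxia mean (log2 CPM) in 10 of the 10 genes and normoxia replicate 4 in 7, while replicate 1 was above it in 1 and replicate 3 in 0. In hyperoxia, replicate 4 was above its group mean in 9 of the 10 genes and was the highest library of its group in those 9. Replicates 1, 2 and 3 were above it in 1, 5 and 3. Over all tested genes, each library was above its group mean in 49.1% to 52.3% of genes. The exception in hyperoxia replicate 4 was Ier3, whose highest hyperoxia value was in replicate 3. The spread of log2 CPM was wider in normoxia than in hyperoxia for 8 of the 10 genes, all but Jund and Ier3, and for 69.3% of the 2308 tested genes with a mean of at least 100 CPM. The maximum was 1.94 times the minimum for Fosb in normoxia against 1.20 times in hyperoxia, and 1.45 against 1.14 times for Egr1.

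**Figure D3:**
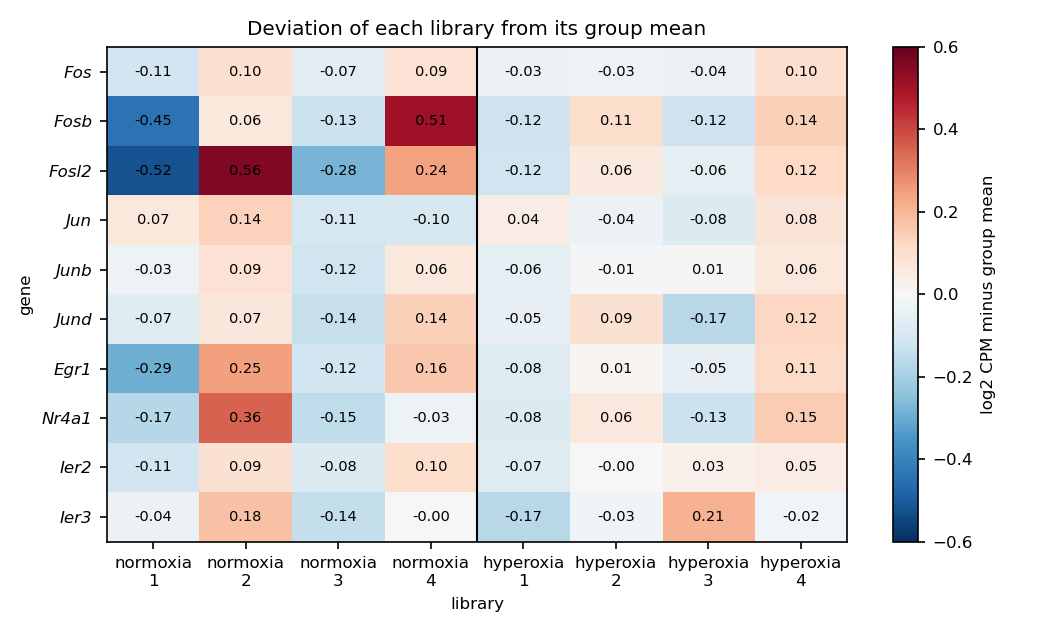
Log2 CPM of each gene in each library minus the mean of its group, as colour and number. The columns of normoxia replicates 1 and 3 are mostly below 0, those of normoxia replicate 2 and hyperoxia replicate 4 are mostly above it, and Fosb and Fosl2 in normoxia carry the largest deviations.

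The protein-coding genes outside the 10 that followed this pattern most closely were Slc20a1, a phosphate transporter (Pearson's r 0.986), Psd3 (0.985), Sdcbp2 (0.981), Ints6, a subunit of the Integrator complex (0.979), and Cpeb4, an mRNA-binding protein (0.977). The measure was the correlation of each gene's deviations from its group means with the mean deviation of the 10 genes over the 8 libraries, among 9067 genes with a mean of at least 10 CPM. It is a description of 8 points that share library preparation and depth. Slc20a1 was at 102, 131, 107 and 130.3 CPM in normoxia and at 131, 142, 137 and 147 CPM in hyperoxia. Like the mean of the 10 genes it was low in normoxia replicates 1 and 3 and highest in hyperoxia in replicate 4. None of these 5 genes was in the lists of related genes, and they did not move alike between groups: the log2 fold change was 0.25 for Slc20a1, 0.54 for Sdcbp2, 0.28 for Cpeb4 and -0.58 for Ints6, all past the test, and -0.04 for Psd3 (adjusted p 0.766). Those of Slc20a1 and Sdcbp2 were lost without normoxia replicate 1 (adjusted p 0.101 and 0.0517) and without several other libraries.

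Other genes of the class were read the same way. Of 48 tested immediate early genes on 3 further lists, 20 were higher and 7 were lower in hyperoxia, with a median log2 fold change of 0.27. Together these were 56.2%, against 35.6% of all tested genes. The lists were chosen with earlier results of these data known, so this share is a description only. Among the other AP-1 genes, 1 of 5 rose and 1 fell. Jdp2, a repressor that pairs with JUN, rose from 29.3 ± 2.42 to 44.7 ± 2.19 CPM (SD, n = 4; log2 fold change 0.61), and Fosl1, which encodes FRA-1, fell from 13.7 ± 1.35 to 9.38 ± 1.34 CPM (log2 fold change -0.55). Both were at low levels beside the 6 AP-1 genes above, of which the lowest mean was 136 CPM for Jund in normoxia. Atf3, a stress-induced partner of JUN, was at 206 ± 45.1 and 262 ± 20.2 CPM (adjusted p 0.0669), and passed on all libraries in DESeq2 (0.0210) and with no filter on low counts (0.0135), and without normoxia replicate 2 (0.0287) or 4 (0.0399).

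Of the 4 tested further EGR and NR4A genes, 1 was higher and none was lower. Nr4a3, of the same receptor family as Nr4a1, was at 9.86, 16.8, 14.0 and 12.5 CPM in normoxia and at 17.0, 20.3, 17.2 and 21.7 CPM in hyperoxia. Its hyperoxia libraries were all above the normoxia libraries, by a small margin over normoxia replicate 2 (log2 fold change 0.52, SE 0.15, adjusted p 0.0212). The adjusted p was 0.0585 without normoxia replicate 4, 0.0575 without hyperoxia replicate 2 and 0.0597 without hyperoxia replicate 4. Nr4a2, the remaining member of that receptor family, was at 45.3, 88.2, 48.6 and 71.8 CPM in normoxia and at 40.1, 48.9, 44.9 and 48.2 CPM in hyperoxia. Normoxia replicates 2 and 4 stood high and the rest lay close together (log2 fold change -0.48, adjusted p 0.0666), and Nr4a2 passed with the replicate block (log2 fold change -0.43, adjusted p 0.0281), with no filter on low counts (0.0167) and without normoxia replicate 1 (0.0180) or 3 (0.0307). Egr2 and Egr3, with log2 fold changes of -0.15 and 0.26, did not pass the test, and Egr3 did without normoxia replicate 2 (0.51, adjusted p 0.0142).

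Among the remaining 39 immediate early genes, 18 were higher and 6 were lower. Ctgf, a secreted matrix protein and YAP target, rose most, from 64.1 ± 8.95 to 227 ± 63.8 CPM (log2 fold change 1.82). Ier5l fell most, from 212 ± 23.7 to 137 ± 11.7 CPM (log2 fold change -0.63). Of the most abundant, Sgk1, a kinase of salt and stress responses, was higher (log2 fold change 0.28), while Socs3, a brake on cytokine receptors, and Plk2 had log2 fold changes of -0.02 and -0.19 and did not pass. Without normoxia replicate 3 the adjusted p of Plk2 was 0.0221. The following were chosen after their values were seen. Per1, a clock gene that glucocorticoids and CREB induce, rose from 170 ± 44.2 to 379 ± 20.2 CPM, Bhlhe40 from 96.5 ± 17.4 to 199 ± 30.3, Maff from 78.2 ± 14.9 to 153 ± 18.3 and Rhob from 482 ± 50.8 to 755 ± 39.7. The endothelial flow factor Klf2 (log2 fold change 0.34), the growth brake Btg2 (0.69) and Dusp1 (0.23), the phosphatase that ends MAP kinase signals, were also higher. The call of Dusp1 was lost without normoxia replicate 3 or 4 or hyperoxia replicate 2 or 4, at adjusted p-values from 0.0604 to 0.0708. Ppp1r15a and Hes1 were lower (-0.52 and -0.57), and Klf4 did not pass (0.11).

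**Figure D4:**
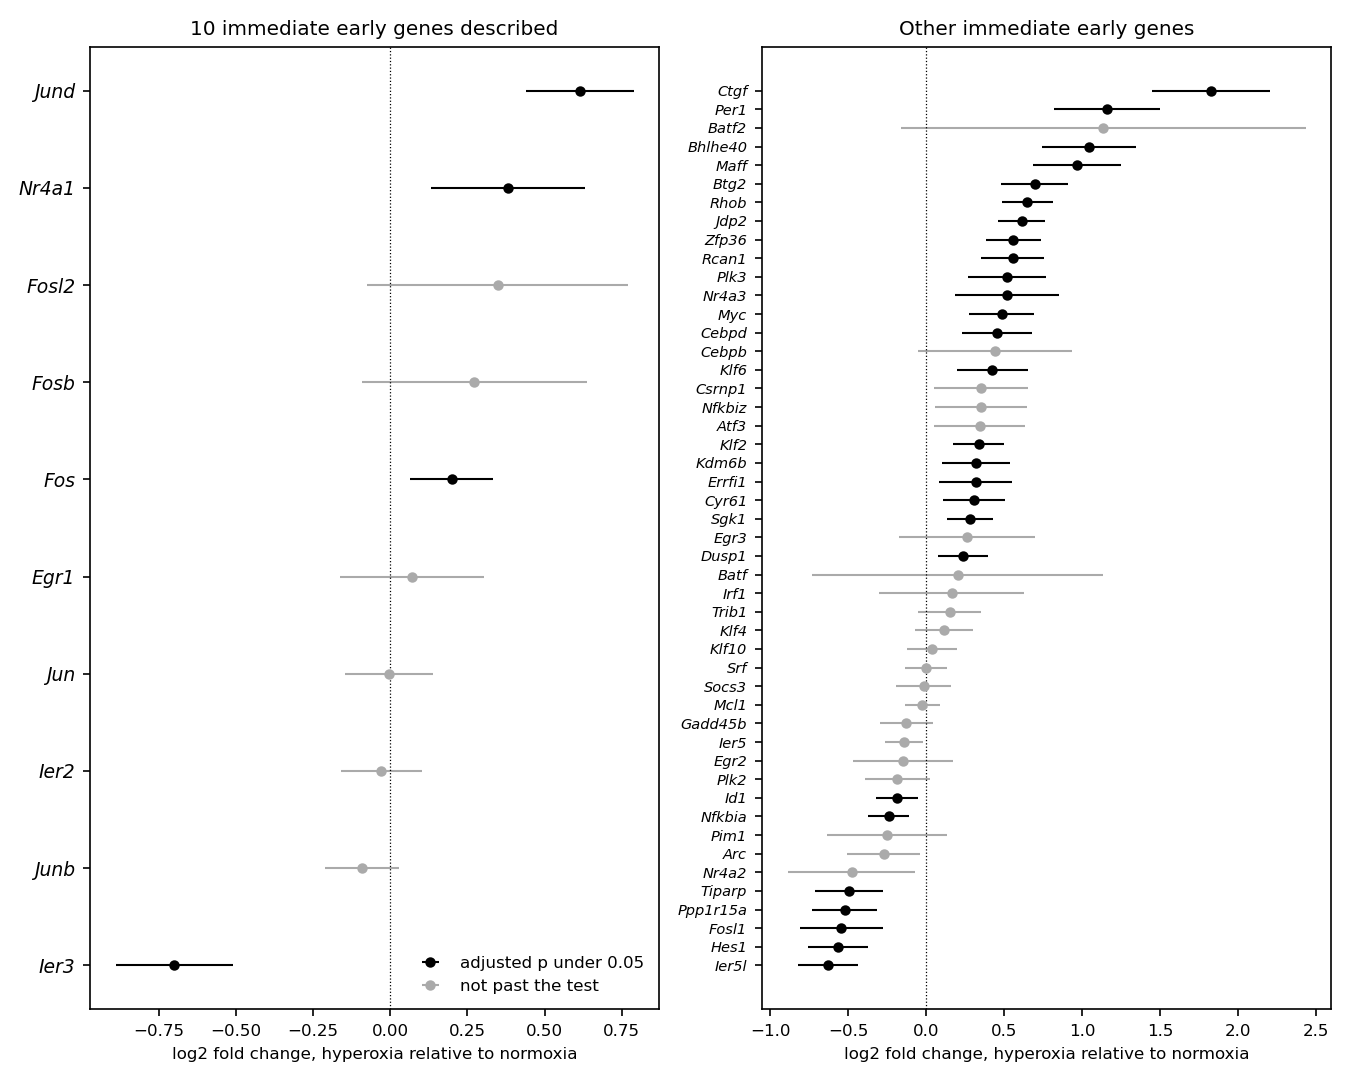
Log2 fold change, hyperoxia relative to normoxia, with 95% intervals, for the 10 genes (left) and for 48 other immediate early genes (right), each panel with its own axis; black marks an adjusted p under 0.05. The 10 genes lie between -0.70 (Ier3) and 0.61 (Jund), and the others between -0.63 (Ier5l) and 1.82 (Ctgf).

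The genes that act on the class moved in both directions. Of 8 genes (ternary complex factors, SRF cofactors, EGR corepressors and Creb1), 2 were higher and 4 were lower. The EGR corepressors Nab1 and Nab2 rose by 0.36 each on the log2 scale, and the call of Nab2 was lost without normoxia replicate 1 or 2 or hyperoxia replicate 2, 3 or 4, at adjusted p-values from 0.0512 to 0.0623. The ternary complex factors Elk3 and Elk4 fell (-0.35 and -0.32), as did the SRF cofactor Mkl2 (-0.32) and Creb1 (-0.31), while Srf itself was at 95.4 ± 5.73 and 95.2 ± 6.32 CPM (adjusted p 0.962). Of 17 kinases of the MAP kinase cascades, 7 were higher and 4 were lower. The shares over all tested genes were 18.5% higher and 17.1% lower. This list and that of the 8 genes above were chosen with earlier results of these data known, so their counts are a description. Mapk3, an ERK gene, was at 492 ± 26.7 and 492 ± 4.27 CPM (log2 fold change 0.00, adjusted p 0.990). RNA levels say nothing of kinase activity. Mapkapk2 was at 123 and 134 CPM (adjusted p 0.141, and 0.0157 without normoxia replicate 1), Rps6ka3, an ERK-activated kinase, was higher (0.33) and Rps6ka5, which phosphorylates CREB and histones at these promoters, was lower (-0.52).

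The messages of this class are cleared through AU-rich elements. Of 7 tested proteins that bind such elements, 1 was higher and 2 were lower, beside 18.5% and 17.1% of all tested genes. Zfp36, which speeds decay and is itself an immediate early gene, was at 424 ± 52.1 CPM in normoxia and rose to 624 ± 27.5 CPM in hyperoxia (adjusted p 0.000344, log2 fold change 0.56). Its relatives Zfp36l1 and Zfp36l2 fell, from 322 ± 29.5 to 162 ± 13.9 CPM (-0.99) and from 312 ± 21.7 to 145 ± 10.1 CPM (-1.10).

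Of 19 tested genes known as AP-1 or EGR1 targets, 12 were higher and 0 were lower, with a median log2 fold change of 0.96. Of all tested genes, 18.5% were higher and 17.1% were lower. The remaining 7 of the 19 did not pass in edgeR's test, and all 19 log2 fold changes were above 0, the lowest being 0.03. The leukocyte adhesion receptor Icam1 rose from 318 ± 35.2 to 689 ± 28.9 CPM (log2 fold change 1.12), Ccnd1, for cyclin D1, from 264 ± 25.03 to 590 ± 28.8 CPM (1.16), and the pericyte attractant Pdgfb from 434 ± 40.5 to 546 ± 19.9 CPM (0.33). Several of the genes that rose were at low levels, the lowest mean in normoxia being 0.09 CPM. This list was chosen with earlier results of these data known, so its counts are a description. Many factors other than AP-1 and EGR1 are known to act on these genes.

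Heat shock genes were read beside the class, since handling of tissue is known to induce both. Of 13, 2 were higher and 6 were lower, with a median log2 fold change of -0.19. The shares over all tested genes were 18.5% higher and 17.1% lower. This list too was chosen with earlier results of these data known, so its counts are a description. Hsp90ab1 (-0.16) and Hspa8 (-0.27) fell, as did Dnaja1 (-0.46), and Dnajb4 rose (0.67). The call of Hsp90ab1 was lost without normoxia replicate 1 (adjusted p 0.0518) or hyperoxia replicate 2 (0.0706), with the replicate block (0.0565), with no filter on low counts (0.0503) and on log2 FPKM (0.0599). The stress-induced Hspa1b was at 1129, 1041, 850 and 489.6 CPM in normoxia and at 835, 577, 548 and 889 CPM in hyperoxia, with no difference past the test (adjusted p 0.359). Its near-identical copy Hspa1a, chosen after its values were seen, ran in the same order over the libraries of each group, from 223 to 536 CPM in normoxia and 288 to 462 CPM in hyperoxia, and reads can be shared between both. Hspa1b was highest in normoxia in replicate 1 and lowest in replicate 4, where 7 of the 10 immediate early genes were above their group mean, and highest in hyperoxia in replicate 4, as were 9 of the 10.

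A score of epithelial RNA was set beside these results. The mean log2 CPM of the AT1, AT2 and general epithelial markers was 2.23 to 2.79 in normoxia and 3.89 to 5.32 in hyperoxia, with no overlap. In edgeR's fit with this score as a further term, 0 of the 10 genes passed the test, 0 of them had an unadjusted p under 0.05, and 232 of all genes passed, while 4 of the 10 passed in DESeq2 without the score. Jund then had a log2 fold change of 0.39 (adjusted p 0.520), Ier3 of -0.23 (adjusted p 0.685), Fos of 0.23 (adjusted p 0.660) and Nr4a1 of 0.20 (adjusted p 0.851). Of the genes named above, Ccnd1 (1.10), Icam1 (0.98) and Zfp36l2 (-0.97) passed in that model. Because the score and the oxygen group nearly coincide, their parts in the difference cannot be told apart by this model. Hyperoxia replicate 3, with the least epithelial RNA, was the nearest to normoxia of the 4 hyperoxia libraries in all 4 genes that passed the test. There Jund (184 CPM), Ier3 (545 CPM) and Fos (833 CPM) were outside the normoxia range, and Nr4a1 (595 CPM) was inside it. Hyperoxia replicate 1 had the highest score, 5.32. Its Jund (200 CPM), Nr4a1 (615 CPM) and Fos (835 CPM) were below those of hyperoxia replicates 2 and 4. Its Ier3 (421 CPM) was the farthest from normoxia. A relation of these levels to the score was not tested.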

How the data were processed

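Lung ECs of 4 normoxia and 4 hyperoxia libraries were profiled by RNA-seq. The authors deposited a table of whole-number counts per gene and a table of FPKM values for the same 8 libraries. Per the submitters' processing notes, HISAT2 2.0.5, featureCounts 1.5.0-p3 and build mm10 were used, and the handling of strand and of reads shared by genes is not given in the sources used here. The labels name an RNeasy kit and the study's methods TRIzol. In each library, the deposited FPKM were a median of 0.974 to 1.02 times the count over gene length and library total. The spread of this ratio over genes was not computed. The FPKM served for levels between genes and as an alternative. The gene length column equalled the merged exons of GENCODE M21 for all 10 genes.

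Samples were grouped by title. Counts were tested over the whole table with edgeR 4.0.16 in R 4.3.3 (TMM, filterByExpr, quasi-likelihood test, group as the only term), adjusted by Benjamini-Hochberg over 15564 genes, with a threshold of 0.05. Standard errors and 95% intervals come from this fit. CPM use TMM-scaled totals and log2 CPM a prior count of 2. The procedure was tested on simulated data. The study used DESeq2, and DESeq2 1.42.0, limma 3.58.1, other scalings and filters, FPKM with pseudocounts of 0.1 and 1, the replicate block, an epithelial score and leaving out each library were alternatives. Libraries of a group differed beyond counting noise (chi-square per degree of freedom from 5.08 to 18.0).

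The members, the lists of related genes and the markers were chosen with earlier results of these data known. Named were the 10 members; of each related list, all genes past the test where these were at most 6, otherwise the 3 most abundant and the largest rise and fall past the test with a mean of at least 5 CPM; Mapk3, Srf, Zfp36, Atf3, Egr2, Egr3, Nr4a2 and Nr4a3; and the 5 genes most alike within groups. A further 11, and the endothelial markers beyond the 3 most abundant, were chosen after their values were seen. Not tested, for low counts, were Batf3, Egr4, Npas4 and Mmp3. Promoters are RefSeq's. Some results under this rule are not reported here.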

Additional observations from a re-analysis of the deposited data

Results flagged for a closer look

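In 5 of 124 groups of 4 libraries (62 named genes), 1 library stood apart from the other 3 by more than Dixon's 95% critical value for 4 samples. Chance alone gives about 1 in 20. Fos in hyperoxia replicate 4 was at 915.58 CPM, with the others at 832.61 to 837.68 CPM, and it is 1 of the 3 libraries on which the call of Fos rests. Ctgf in hyperoxia replicate 1 was at 321.74 CPM (others 182.48 to 203.37), and Atf3 in the same library at 291.77 CPM (others 247.39 to 254.51). Creb1 in hyperoxia replicate 4 was at 89.367 CPM (others 100.7 to 101.89). Btg2 in normoxia replicate 2 was at 183.96 CPM (others 134.4 to 142.76).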

How the results depend on the processing

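Adding the epithelial score as a term left 0 of the 10 genes higher and 0 lower, 0 of the other immediate early genes higher and 0 lower, and 232 of all genes past the test. The cause was not tested. Under this score the log2 fold changes of Jund and Ier3 were smaller in size than without it, and those of Fos (0.23), Per1 (1.37), Bhlhe40 (1.52) and Nab2 (0.69) were larger. Asking also for an absolute log2 fold change of 1 left 0 and 0 of the 10 genes, 3 higher and 0 lower of the others, and 1087 of all genes. Leaving out 1 library gave 1 to 4 higher and 1 lower of the 10 genes, and 16 to 25 higher and 6 to 10 lower of the others. Under the other scalings, filters and tools the counts for the 10 genes stayed at 3 and 1. Upper quartile scaling and library totals moved the share of higher calls among all genes from 51.9% to 47.1% and 46.6%, the epithelial score to 83.6%. Log2 fold changes near 0 changed sign. Jun was at 0.00675 with no filter, 0.000197 with DESeq2, 0.00251 and 0.00250 on FPKM, and -0.0407 to 0.0407 when a library was left out. In such fits Egr1 ran from -0.0209 to 0.154, Ier2 from -0.0677 to 0.00481, Socs3 from -0.0750 to 0.0431, Mapk3 from -0.0242 to 0.0272, Srf from -0.0354 to 0.0369 and Psd3 from -0.102 to 0.0304. Mapk3 was at -0.0204 with upper quartile scaling, -0.0227 with library totals and -0.0159 on protein-coding genes, and Srf at 0.00632 with no filter. With the epithelial score the sign changed for Ier2 (0.145), Socs3 (0.341), Elk4 (0.0244), Mapk3 (-0.0510), Mapkapk2 (-0.0599), Srf (0.179), Egr2 (0.154) and Dusp1 (-0.00727); the cause was not tested. Of all values of named genes under alternatives, 1056 kept direction and side of the threshold, 86 lost the call, 13 gained it and 33 changed sign.

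With the replicate number as a block (the replicate block), 3 of the 10 genes were higher and 1 lower, and 4792 of all genes passed against 5535. Of the genes named in the text, the block ended the call of Hsp90ab1 (adjusted p 0.0565) and gave one for Nr4a2 (0.0281), and it changed no other call among them. The labels do not say whether libraries with the same number were paired. The correlations of their deviations ran from -0.14 to 0.119, and 1 of 4 normoxia libraries correlated best with its own number. A weak pairing could leave such values, so they do not decide the question.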
